A study of Mus musculus with 16 samples.

Results

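The genes described here are 10 feedback inhibitors of receptor and mitogen-activated protein (MAP) kinase signalling, picked by symbol out of the 55401 genes of the count table from MC38 cells: the dual-specificity phosphatase genes Dusp1, Dusp2, Dusp4, Dusp5 and Dusp6, the Sprouty genes Spry1, Spry2 and Spry4, the Sprouty-related gene Spred1, and Phlda1. All 10 had a row in the table. In 3 of them, Phlda1, Dusp2 and Spred1, RNA was called higher in the libraries labelled Ythdf2-KO than in WT, and no member was called lower; over all genes tested 2.99% were called higher and 1.54% lower. All 3 calls were lost when any 1 of 5 of the 6 libraries was left out, and also when replicate number was added to the fit. Phlda1 had the largest fold change of the members tested, at 1.79 on the log2 scale (SE 0.19, n = 3 libraries per group).

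Growth factor receptors act through Ras to switch on the kinases RAF, MEK and ERK, and active ERK induces, among many other genes, those of its own inhibitors. Dual-specificity MAP kinase phosphatases remove phosphate from the threonine and tyrosine that activate a MAP kinase. Sprouty and Spred proteins act further upstream, at the level of the receptor and of Ras and RAF. Transcripts of such inducible genes are often short-lived, with AU-rich elements in the 3′ UTR, and N6-methyladenosine (m6A), a methylated base of mRNA, is another mark linked to decay. The reader protein YTHDF2 recognises m6A and brings the RNA to deadenylases.

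MC38 is a mouse colon adenocarcinoma line. Cells labelled WT (titles tagged gNC) and cells labelled Ythdf2-KO (titles tagged gY2) were grown in the same medium with no further treatment named, and the sources used here do not give the number of clones or the guides. Read counts per gene came from 3 input libraries of each group, and peak lists came from 3 m6A immunoprecipitation libraries of each group and from 2 YTHDF2 RNA immunoprecipitation (RIP) libraries of WT cells. No label states that the replicates were separate cultures, and p-values here therefore measure only how far these libraries differ, which may be technical.

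Total counts ran from 45441281 to 50959555 per input library, where 3 counts, the limit set by a count of 0 when counting error alone is considered, equal 0.0582 to 0.0651 CPM (counts scaled to a common library total). The level of Ythdf2 over the whole gene was 55.6 to 68.5 CPM in WT and 59.8 to 67.9 CPM in the other group. Reads from exons outside an edited site are in that count, so it does not check the knockout, and the libraries are called KO-labelled. KO-labelled replicate 1 stood apart from its group: on the first principal component (51.4% of variance) it lay at -10.4. The WT libraries lay near -39 and KO-labelled replicates 2 and 3 at 64.1 and 63.2. By chi-square per degree of freedom, larger where 2 libraries are less alike, WT replicate 1 differed from its group too. The value was 8.85 for WT replicates 2 and 3 and 9.67 for KO-labelled replicates 2 and 3. WT replicate 1 was at 30.28 and 28.57 from these WT libraries and at 30.05 from KO-labelled replicate 1. KO-labelled replicate 1 was at 71.55 and 71.48 from KO-labelled replicates 2 and 3. Each group thus held a close pair, and 3 libraries may overstate its replication. Of 10 colon epithelial markers, Epcam, Krt18 and Cldn7 had no count in any of the 6 libraries, and the sum of all 10 was 0.796 to 1.40 CPM per library, so these genes did not bear out an epithelial identity of the line. The sum of 10 fibroblast markers was 2118 to 2677 CPM in WT and 2642, 1504 and 1534 CPM in KO-labelled replicates 1, 2 and 3; Col3a1 made up most of it, at 1794 to 2312 CPM in WT. With all libraries 8 of these markers were tested and 1, Dcn, fell. Without KO-labelled replicate 1, 7 of the 8 fell and 1, Pdgfra, rose (median log2 fold change -1.25), with Col1a2 at -4.39 and Lum at -2.72 (edgeR adjusted p = 4.06e-05 and 0.000400). Over all genes in that fit 16.1% were called lower and 19.3% higher. For 16 leukocyte and endothelial markers the sum was 71.2 to 90.4 CPM in WT and 55.1, 133 and 127 CPM in the KO-labelled libraries; most of that sum was Cd68, at 54.3 to 74.6 CPM in WT and 42.0, 122 and 117 CPM in the KO-labelled libraries. Adgre1 was at 0 in all 6. With all libraries 7 of these markers were tested, 1, Cd3d, fell, 2 of the 7 had a fold change above 0 and the median was -0.64. Without KO-labelled replicate 1, 2 rose and 3 fell. The part of these differences in the results below was not tested.

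Peaks came from the lists the authors deposited. Of the 10 genes, 6 had a WT m6A peak (Dusp1, Dusp4, Dusp6, Spry2, Spred1 and Phlda1), 8 had a KO-labelled m6A peak, with Dusp5 and Spry4 added, and 8 had a RIP peak, all but Dusp5 and Spry1. The added peaks of Dusp5 and Spry4 ranked only 17037 and 15110 of 17428 KO-labelled peaks by score. Both genes had a higher mean RNA level in the KO-labelled libraries, and the part of this in peak calling was not tested. Among 12868 protein-coding genes tested for expression, the shares with such peaks were 64.2%, 60.1% and 45.5%, in the same order of lists. The members' share with a WT m6A peak was close to that background, which holds tested genes only, while the 10 members include Spry1, which was not tested. Spry1, which had the lowest RNA level of the 10, had no peak in any list, and Dusp2 had a RIP peak with no m6A peak. In 5 members, Dusp1, Dusp4, Spry2, Spred1 and Phlda1, a RIP peak shared at least 1 base with a WT m6A peak, beside 31.7% of those protein-coding genes. Each group has a single list, so peaks carry no replicate error.

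The stretches below are shown because m6A and YTHDF2 RIP peaks coincide on them. Each holds 21 bases around a GGAC, the core of a common m6A consensus, and capitals mark that GGAC. The one nearest the middle of the shared bases was taken in each gene.
Dusp1: cacattcgGGACcaatatatt
Dusp4: gcaaatagGGACtgaccagtg
Spry2: cagtacaaGGACaagtaccag
Spred1: aaatgccaGGACgctccagat
Phlda1: agtagtttGGACttcacccga
They were read 5′ to 3′ on the gene's strand from GRCm38, the assembly of mm10. The Dusp1 stretch is chr17:26506053-26506073 (minus strand) in the 3′ UTR, and the Dusp4 stretch is chr8:34818847-34818867 (plus strand), also in the 3′ UTR. The Spry2 stretch at chr14:105893374-105893394 (minus strand) and the Spred1 stretch at chr2:117177665-117177685 (plus strand) lie in coding sequence. The Phlda1 stretch is chr10:111508152-111508172 (plus strand), in the 3′ UTR. A GGAC there shows a match of letters and not which base was methylated.

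On transcripts, the 12 WT m6A peaks of the members were centred in coding sequence (6), the 3′ UTR (4) or the 5′ UTR (2), and the 25 RIP peaks lay mostly in the 3′ UTR (16, with 8 in coding sequence and 1 in the 5′ UTR). The widths ranged from 61 to 509 bases for WT m6A and from 61 to 3019 bases for RIP. In their WT m6A peaks the members held 30 GGAC in 3738 bases, a density of 8.03 per kilobase, and 3.18 per kilobase in the rest of the same transcripts. Over all tested genes with a WT m6A peak the densities were 5.42 and 3.84 per kilobase. RIP peaks of the members had no such excess, with 3.32 GGAC per kilobase inside and 4.10 outside, beside 3.92 and 4.11 over all genes with RIP peaks.

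Among the phosphatase genes, Dusp4 had the m6A peak with the lowest deposited score of the members. That peak, chr8:34818673-34819150 in the WT list, starts just before the stop codon and runs into the 3′ UTR, and it ranked 642 of 19236 WT peaks by score. KO-labelled m6A (chr8:34818763-34819060) and RIP (chr8:34818733-34819090, rank 1390 of 23372) had peaks at the same place. Dusp4 also had WT peaks in the 5′ UTR (chr8:34807357-34807476) and at the start of the coding sequence (chr8:34807684-34807892), and the KO-labelled list held neither. In Dusp1 a single m6A peak of 299 bases in WT and 388 bases in KO-labelled cells lay over the stop codon and the 3′ UTR, inside a RIP peak of 1104 bases. In Dusp6 the m6A peak was identical in the WT and KO-labelled lists (chr10:99264668-99264877, coding sequence), and the RIP peaks lay elsewhere, over the stop codon and in the 3′ UTR. Dusp2 had its only peak, RIP, just past the stop codon (chr2:127337808-127338107), and Dusp5 its only peak, KO-labelled m6A, near the end of the coding sequence (chr19:53541240-53541299).

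In Spry2 a RIP peak covered 98.6% of the spliced transcript, so its overlap with both m6A peaks followed from its width. Spred1 was similar: 6 RIP peaks covered 82.7% of a transcript of 6016 bases, and both m6A peaks, in coding sequence and 3′ UTR, fell under the widest. Spry4 had 5 RIP peaks, 4 of them in its long 3′ UTR, and its KO-labelled m6A peak was under none of them. Phlda1 had 3 peaks in each list, with m6A covering 42.9% of the transcript in WT and 46.0% in KO-labelled cells, and RIP 62.4%. Its 3′ UTR peak was the same 507 bases (chr10:111508079-111508585) in the KO-labelled m6A and RIP lists. Over all members, 10 of 12 WT m6A peaks overlapped a KO-labelled m6A peak and 9 of 12 overlapped a RIP peak.

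**Figure D1:**
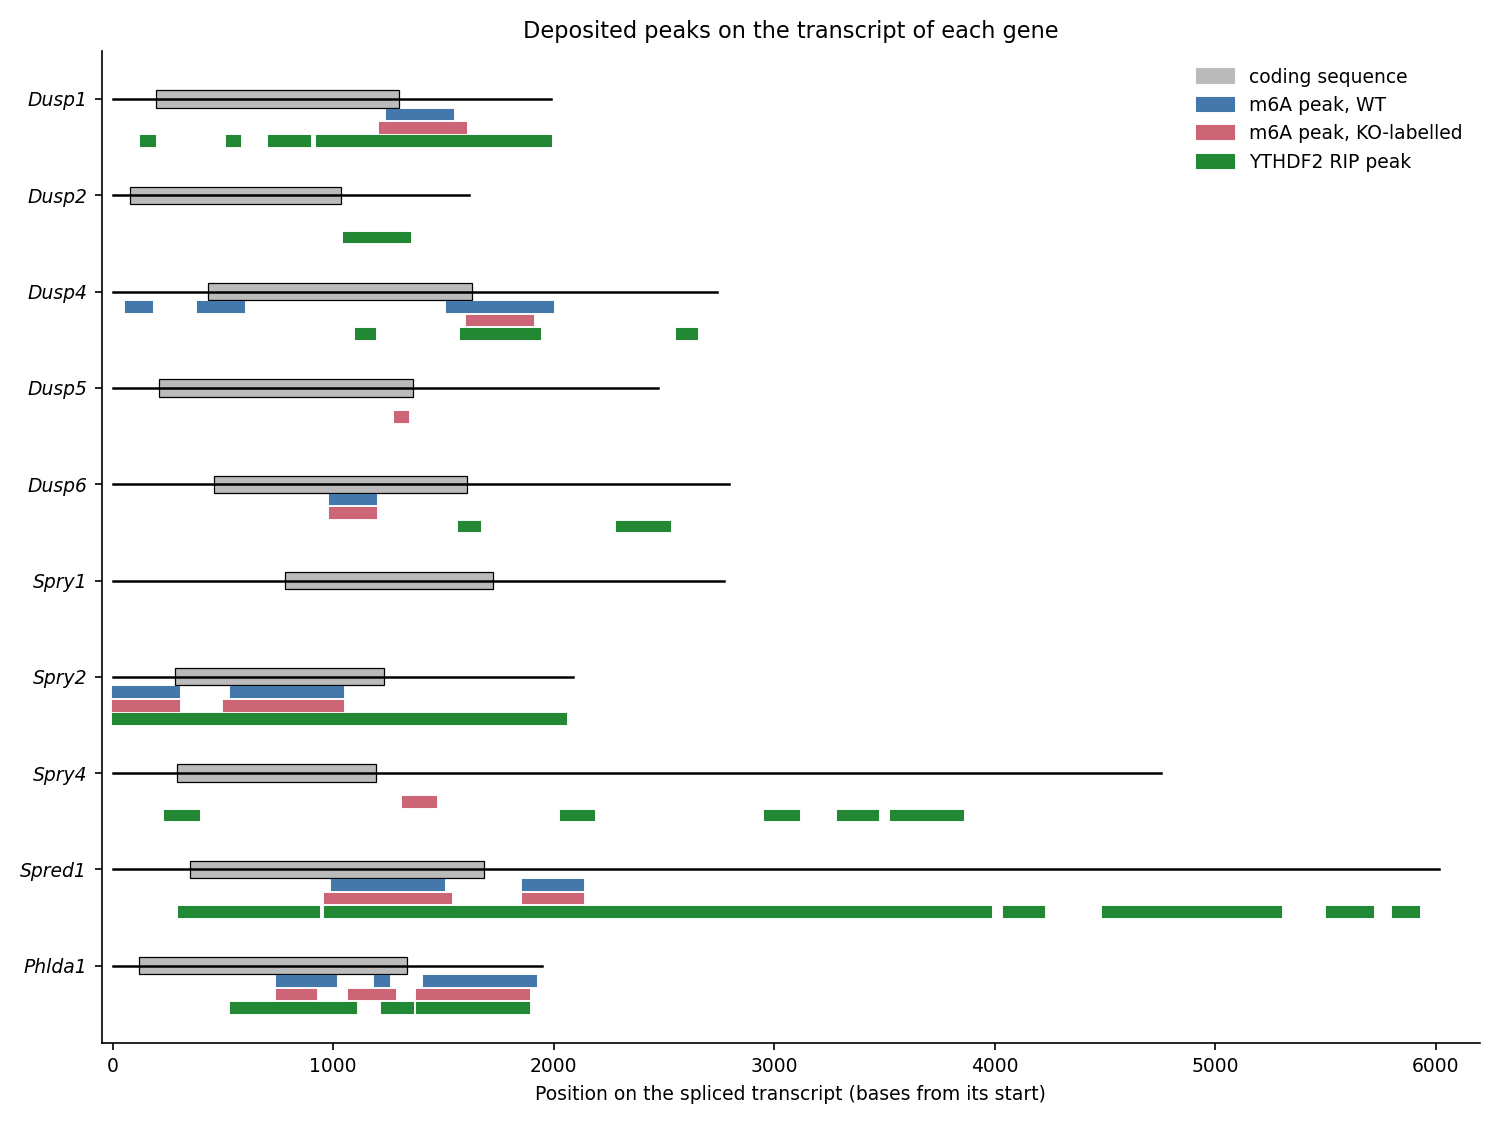
Deposited peaks on the spliced transcript of each gene, with position in bases from the transcript start on the horizontal axis; grey boxes are coding sequence, blue bars WT m6A, red bars KO-labelled m6A and green bars YTHDF2 RIP peaks. Spry1 has no bar, Dusp2 has a RIP bar only, and green bars cover 98.6% of Spry2 and 82.7% of Spred1.

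Turning to RNA level, CPM were computed with library totals scaled by TMM factors. A fold change is KO-labelled over WT, the SE is the fold change over the root of the F statistic, and a gene was called at a Benjamini-Hochberg adjusted p below 0.05 in edgeR's quasi-likelihood test over 18969 genes. Of the 10 members, 9 passed the filter on low counts; the lowest count among them in any library was 52, so none passed through the KO-labelled libraries alone. Of these, 3 of 9 were called higher and 0 lower, and over all genes tested 2.99% were called higher and 1.54% lower. At an unadjusted p below 0.05, 7 of the 9 were higher, beside 16.9% of all genes. The fold change was above 0 in 9 of 9, beside 49.3%. In bulk RNA, fewer cells of a type and less RNA per cell cannot be told apart.

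**Figure D2:**
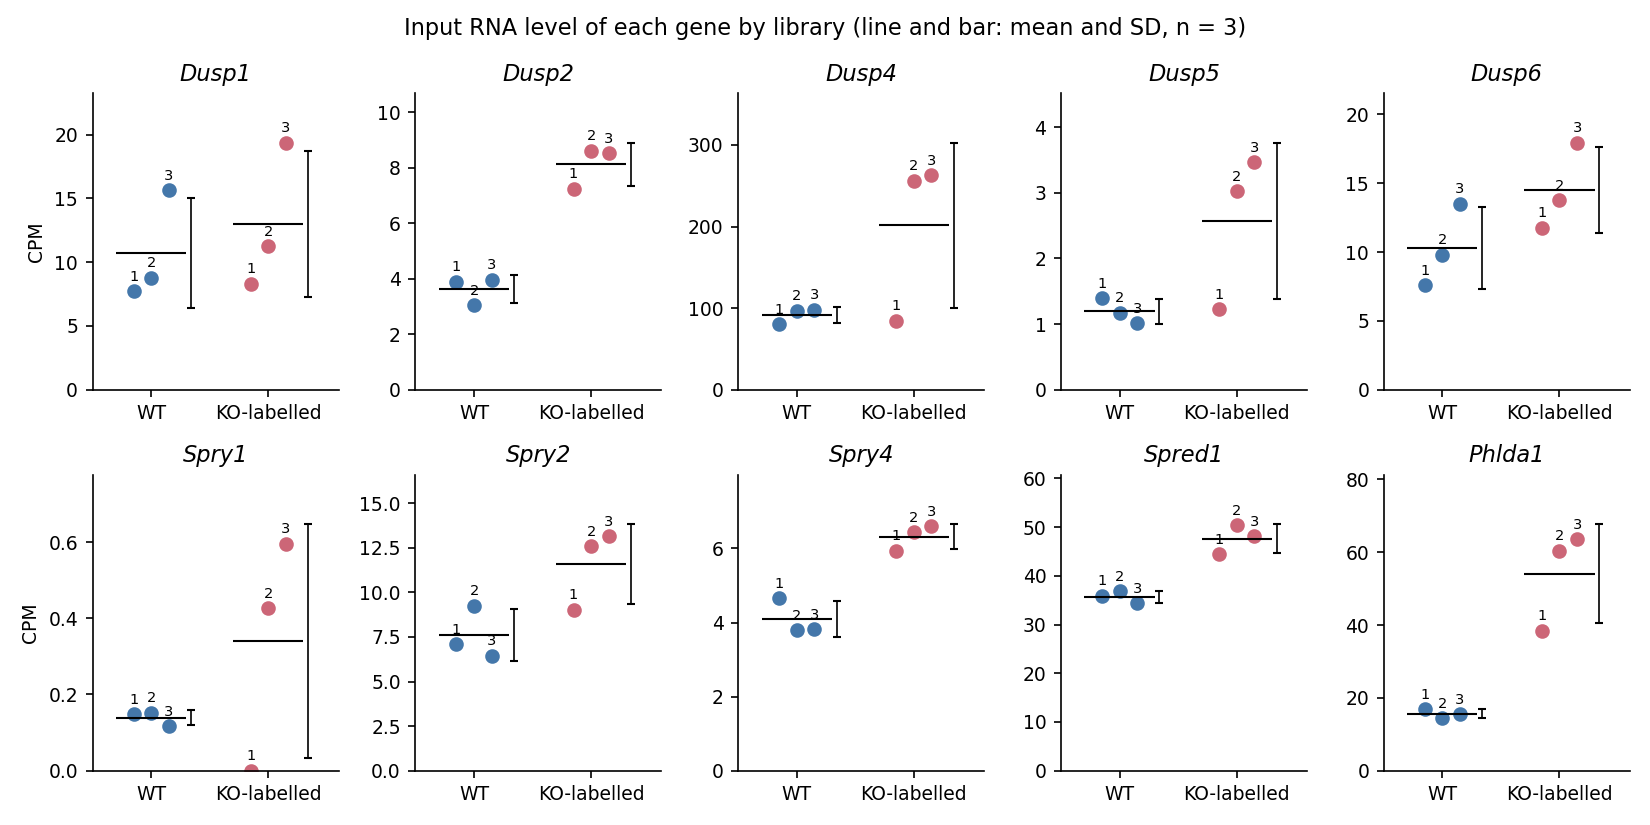
RNA level (CPM, linear axis from 0) of each of the 10 genes in the 3 WT (blue) and 3 KO-labelled (red) input libraries, numbered by replicate, with the mean as a line and the SD as a bar. The groups do not overlap for Dusp2, Spry4, Spred1 and Phlda1, and KO-labelled replicate 1 lies at the WT level for Dusp4 and Dusp5.

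Of the nuclear, inducible phosphatase genes, 1 was called. Dusp2 (ENSMUSG00000027368.6, chromosome 2, 127336159 to 127338376, plus strand), best known from activated immune cells, measured 3.89, 3.04 and 3.96 CPM in WT and 7.24, 8.61 and 8.53 CPM in KO-labelled replicates 1 to 3. All 3 KO-labelled libraries were above all WT libraries. The log2 fold change was 1.16 (SE 0.17, edgeR adjusted p = 0.0273). Means were 3.63 ± 0.511 and 8.13 ± 0.768 CPM (SD, n = 3), a ratio of 2.24.

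Dusp4 (ENSMUSG00000031530.6, chromosome 8, 34807297 to 34819894, plus strand), a phosphatase of ERK, JNK and p38 in the nucleus, was the most abundant member in CPM. It stood at 80.1, 96.8 and 97.9 CPM in WT and at 84.4, 256 and 263 CPM in KO-labelled cells. KO-labelled replicate 1 lay within the WT range and the other 2 were well above it. The log2 fold change of 1.14 (SE 0.38) did not pass (edgeR adjusted p = 0.107).

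Dusp5 (ENSMUSG00000034765.6, chromosome 19, 53529109 to 53542431, plus strand), a nuclear phosphatase specific to ERK, had the same shape at a far lower level, with 1.40, 1.17 and 1.01 CPM in WT and 1.22, 3.03 and 3.47 CPM in KO-labelled cells. Here too replicate 1 was within the WT range (log2 fold change 1.11, SE 0.39, edgeR adjusted p = 0.114). An annotated gene on the other strand overlaps its exons, and the sources used here do not give the strand setting of the counts.

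Dusp1 (ENSMUSG00000024190.7, chromosome 17, 26505590 to 26562128, minus strand), a stress- and growth factor-induced phosphatase that prefers p38 and JNK, measured 7.72, 8.79 and 15.6 CPM in WT and 8.33, 11.3 and 19.4 CPM in KO-labelled cells. The groups overlapped, and replicate 3 was the highest in each. Its log2 fold change was 0.27 (SE 0.37, edgeR adjusted p = 0.655), and without KO-labelled replicate 3 it was -0.13. Dusp6 (ENSMUSG00000019960.8, chromosome 10, 99263231 to 99267489, plus strand), the cytoplasmic ERK phosphatase, also peaked in replicate 3 of each group, at 7.59, 9.81 and 13.5 CPM in WT and 11.8, 13.8 and 17.9 CPM in KO-labelled cells. The ranges overlapped and the difference did not pass (log2 fold change 0.49, SE 0.24, edgeR adjusted p = 0.223).

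The Sprouty genes differed in level. Spry2 (ENSMUSG00000022114.5, chromosome 14, 105891947 to 105896819, minus strand) measured 7.10, 9.25 and 6.46 CPM in WT and 9.03, 12.6 and 13.2 CPM in KO-labelled cells. KO-labelled replicate 1 was just below the highest WT library, and the difference did not pass (log2 fold change 0.61, SE 0.20, edgeR adjusted p = 0.104). Spry4 (ENSMUSG00000024427.7, chromosome 18, 38586247 to 38601415, minus strand) measured 4.65, 3.80 and 3.82 CPM in WT and 5.94, 6.44 and 6.59 CPM in KO-labelled cells. Its groups did not overlap, yet it missed the threshold (log2 fold change 0.63, SE 0.15, edgeR adjusted p = 0.0587). Spry1 (ENSMUSG00000037211.12, chromosome 3, 37639947 to 37644598, plus strand) was near the detection limit, with 7, 7 and 6 counts in WT and 0, 21 and 28 in KO-labelled cells, and was not tested with all libraries. An antisense gene, Gm42922, overlaps its exons at up to 0.106 CPM, close to the 0.116 to 0.152 CPM of Spry1 in WT, and reads of the pair cannot be told apart without the strand setting. The library with no count was again KO-labelled replicate 1, where 0 allows up to 0.0582 CPM.

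Spred1 (ENSMUSG00000027351.14, chromosome 2, 117121374 to 117182279, plus strand), whose protein brings neurofibromin to Ras at the membrane, had the smallest SE of the members. It measured 35.9, 36.9 and 34.4 CPM in WT and 44.5, 50.4 and 48.1 CPM in KO-labelled cells, with no overlap. The difference was small and passed: means of 35.7 ± 1.22 and 47.7 ± 3.01 CPM (SD, n = 3), log2 fold change 0.42 (SE 0.083, edgeR adjusted p = 0.0418).

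Phlda1 (ENSMUSG00000020205.8, chromosome 10, 111506286 to 111508645, plus strand) encodes a pleckstrin homology-like domain protein induced by growth factors and stress. It measured 16.9, 14.5 and 15.5 CPM in WT and 38.5, 60.4 and 63.6 CPM in KO-labelled cells. Every KO-labelled library was well above every WT library, with replicate 1 the lowest of its group. The log2 fold change was 1.79 (SE 0.19, edgeR adjusted p = 0.0164), the ratio of means was 3.47, and the gene ranked 29 of 18969 by p. An antisense gene, Gm28592, overlaps its exons and did not exceed 0.175 CPM in any library.

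KO-labelled replicate 1 was above the WT range in some members and not in others. Its ratio to the WT mean was 2.00 for Dusp2, 2.46 for Phlda1, 1.45 for Spry4 and 1.24 for Spred1, and these 4 genes had no overlap between groups, which held for 17.7% of all genes in that direction. The ratio was 1.19 for Spry2, 1.14 for Dusp6, 1.03 for Dusp5, 0.921 for Dusp4 and 0.777 for Dusp1, and Spry1 had no count there. Without that library 8 of 10 members were called higher, all but Dusp1 and Dusp6, beside 19.3% of 19551 genes. Of its group that library lay nearest WT on the first principal component, and KO-labelled replicates 2 and 3 were a close pair. Larger fold changes and smaller p-values without it can follow from the choice of library alone, so these calls are no further support. Spry1 is 1 of the 8, but it passed the filter on low counts only through the KO-labelled libraries in which it was high, so its call has no weight. In that fit 7 of 8 fibroblast markers fell, beside 16.1% of all genes, and the part of this in the members' calls was not tested. Log2 fold changes were then 1.45 for Dusp5 and 1.99 for Phlda1, with edgeR adjusted p of 0.00159 and 3.85e-05, and Dusp4 went from 1.14 to 1.50 (edgeR adjusted p = 0.000104). The calls rested on all of the other 5 libraries: without any single one of them, 0 members were called by edgeR, with 4 to 6 at an unadjusted p below 0.05. The Phlda1 fold change was 1.66 to 1.99 over the 6 such fits and its adjusted p 3.85e-05 to 0.138. For Dusp2 these ran from 1.06 to 1.24 and from 0.00108 to 0.160, and for Spred1 from 0.37 to 0.46 and from 0.00211 to 0.196. DESeq2 on all libraries called 5 members higher, adding Spry2 (adjusted p = 0.0320) and Spry4 (adjusted p = 0.00396), beside 11.8% of all genes. With the replicate number as a block in the fit, edgeR called 0 members.

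**Figure D3:**
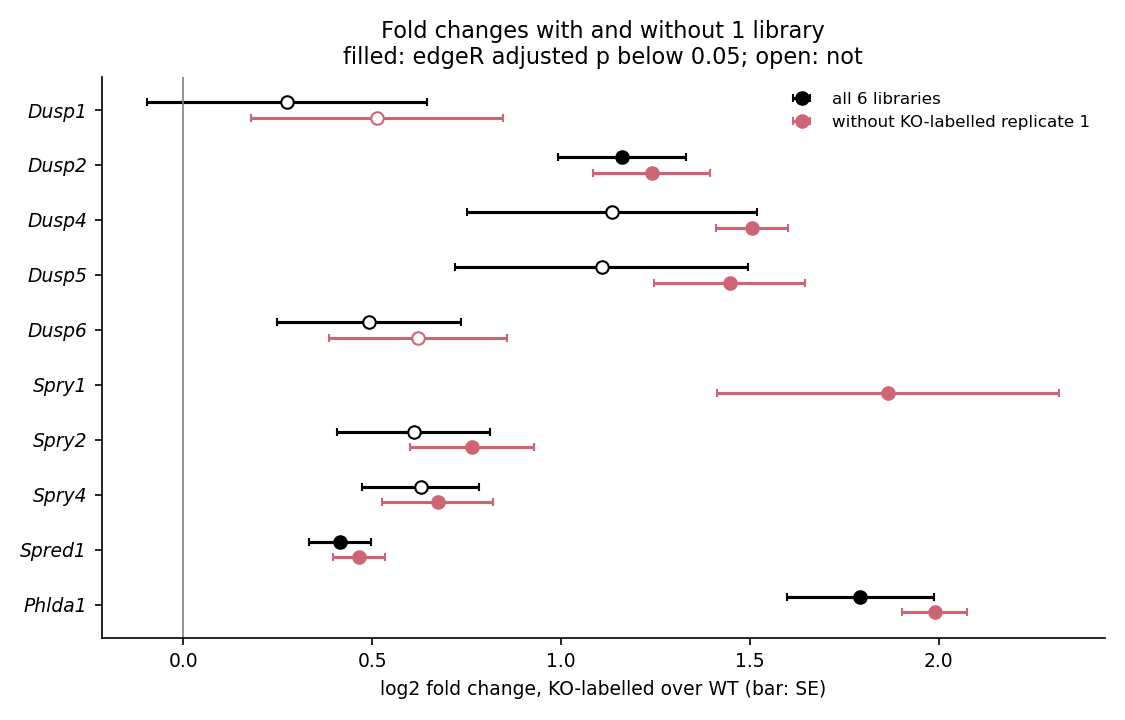
Log2 fold change (KO-labelled over WT, bar: SE) of each gene in edgeR with all 6 libraries (black) and without KO-labelled replicate 1 (red), filled where the adjusted p is below 0.05. With all libraries Dusp2, Spred1 and Phlda1 are filled, and without that library all but Dusp1 and Dusp6. With all libraries Spry1 was not tested, and its filled point without that library has no weight.

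Per kilobase of transcript, the scale on which levels of different genes can be compared, the order of WT means was Dusp4 (33.4 CPM per kb), Phlda1 (8.02), Spred1 (5.94), Dusp1 (5.39), Dusp6 (3.69), Spry2 (3.64), Dusp2 (2.24), Spry4 (0.860), Dusp5 (0.482) and Spry1 (0.0500). The range of Dusp1 over libraries overlapped those of Phlda1, Spred1, Dusp6 and Spry2, and Dusp6 and Spry2 overlapped each other; the remaining neighbours were separate. In KO-labelled cells Dusp4 (73.5 ± 37.0 CPM per kb, SD, n = 3) and Phlda1 (27.8 ± 7.01 CPM per kb) again had the highest means. Dusp2 stood at 5.03 ± 0.475 CPM per kb there, level with Spry2 (5.56 ± 1.08) and Dusp6 (5.18 ± 1.12).

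Genes with the closest course over the 6 libraries were sought for the 3 called members among 11594 genes with a mean of at least 5 CPM, by the mean absolute difference of centred log2 CPM. For Dusp2 they were Ninj1 (0.0883), Slc25a29 (0.0923) and Ass1 (0.0994). For Spred1 they were Sgo1 (0.0201), Cinp (0.0214) and Got2-ps1 (0.0220). For Phlda1 they were Sipa1l2 (0.0789), Hao1 (0.116) and Csdc2 (0.151). The genes were picked for this likeness, so their shared course is no further result. Over so few libraries many genes can lie this near by their group means alone.

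Other genes of the pathway were counted in 9 lists, of which 112 of 125 genes were tested: 11 were called higher and 0 lower, with a median log2 fold change of 0.28. Over all genes tested 2.99% were called higher and 1.54% lower, with a median of -0.01. With DESeq2 size factors in edgeR 8 of these 112 were called higher, with library totals alone 9, and with the replicate block 0. Among the 5 other MAP kinase phosphatases, Dusp7, Dusp8, Dusp9, Dusp10 and Dusp16, 1 passed and all 5 were above 0 (median 0.88). The one that passed was Dusp9, a cytoplasmic ERK phosphatase, at 19.0, 19.3 and 19.1 CPM in WT and 27.4, 40.1 and 37.9 CPM in KO-labelled cells (log2 fold change 0.88, SE 0.15, edgeR adjusted p = 0.0336). Without KO-labelled replicate 1 all 5 passed, beside 19.3% of all genes called higher in that fit. Dusp10, which prefers p38 and JNK, was like Dusp4 in that KO-labelled replicate 1 was at the WT level: 13.1, 13.9 and 12.4 CPM in WT and 13.2, 31.4 and 29.8 CPM in KO-labelled cells (edgeR adjusted p = 0.102). The 8 tested atypical dual-specificity phosphatases, most of which lack the kinase-binding domain, had 0 calls by edgeR (4 at an unadjusted p below 0.05) and a median of -0.03. Of these 8, 3 were above 0. Dusp14 was at 1.36, just missed the threshold (edgeR adjusted p = 0.0503), and its groups did not overlap. Without KO-labelled replicate 1, 3 of the 8 were called higher and 1 lower. Of 2 other Spred genes tested, 0 passed by edgeR (1 at an unadjusted p below 0.05): Spred2 had a log2 fold change of 0.18 (edgeR adjusted p = 0.205) and Spred3 of 0.73 (edgeR adjusted p = 0.0517).

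In the list of other ERK feedback genes 2 of 14 were called higher: Phlda3, a relative of Phlda1 known as a p53 target (log2 fold change 0.60, SE 0.079, edgeR adjusted p = 0.0227), and Sh2b3, an adaptor that restrains cytokine receptor signalling (0.38, SE 0.081, edgeR adjusted p = 0.0492). Among 20 ERK-responsive transcription factor genes 3 passed, all ETS factors of the PEA3 family: Etv4 (1.09), Etv5 (0.66) and Etv1 (0.64), with edgeR adjusted p of 0.0336, 0.0405 and 0.0293. Etv4 measured 23.4, 20.0 and 20.6 CPM in WT and 32.9, 49.9 and 53.3 CPM in KO-labelled cells, with no overlap. Of 6 EGF receptor ligand genes tested, Hbegf (1.42, edgeR adjusted p = 0.0492) and Ereg (1.05, edgeR adjusted p = 0.0398) rose. The fold change was above 0 in 5 of the 6, and Egf was below 0, at -0.70 (edgeR adjusted p = 0.139). Of 14 receptor tyrosine kinase genes, Fgfr3 (1.25, edgeR adjusted p = 0.0288) and Epha2 (0.89, edgeR adjusted p = 0.0462) rose, and 11 of the 14 were above 0. Fgfr1 went the other way without passing (log2 fold change -0.49, edgeR adjusted p = 0.0559). It measured 260 to 311 CPM in WT and 180 to 226 CPM in KO-labelled cells, with no overlap. The Ras-ERK cascade had 0 of 25 called by edgeR (7 at an unadjusted p below 0.05) and a median of 0.17. Without KO-labelled replicate 1, 11 of the 25 were called higher and 2 lower, beside 19.3% and 16.1% of all genes. In the p38 and JNK cascades 1 of 18 rose, Map2k3, a kinase of p38 (0.39, SE 0.083, edgeR adjusted p = 0.0483), with a median of 0.23; with DESeq2 size factors 0 of this list were called by edgeR.

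**Figure D4:**
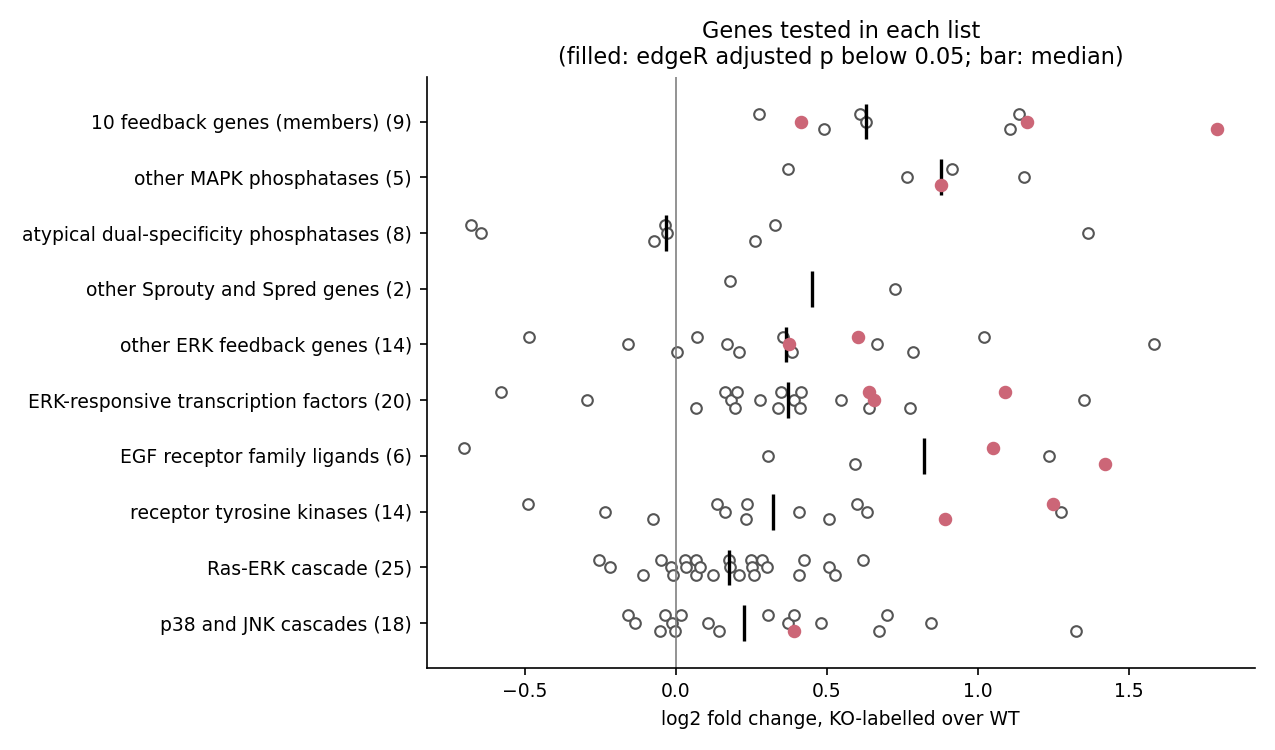
Log2 fold change (KO-labelled over WT) of every tested gene in the 10 feedback genes and in each of 9 pathway lists, with the number tested in brackets, the median as a bar and genes at an edgeR adjusted p below 0.05 filled. Filled points all lie above 0, and the atypical phosphatases centre near 0 at a median of -0.03, with Dusp14 at 1.36.

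The immediate early genes set Dusp1 and Dusp6 in context, and were chosen after their values were seen. Fos measured 1.18, 1.13 and 21.4 CPM in WT and 0.873, 1.93 and 28.9 CPM in KO-labelled cells, and Fosb 1.01, 0.890 and 15.3 CPM and 2.25, 1.42 and 18.3 CPM. Egr1 measured 3.34, 5.02 and 16.1 CPM in WT and 4.37, 2.52 and 9.55 CPM in KO-labelled cells. In each of these, as in Dusp1 and Dusp6, replicate 3 was the highest of both groups, and the groups overlapped. Dusp4 was likewise highest in replicate 3 of each group, at 97.9 and 263 CPM, but by little over replicate 2. The sources used here do not say whether replicates of a number were handled together.

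**Figure D5:**
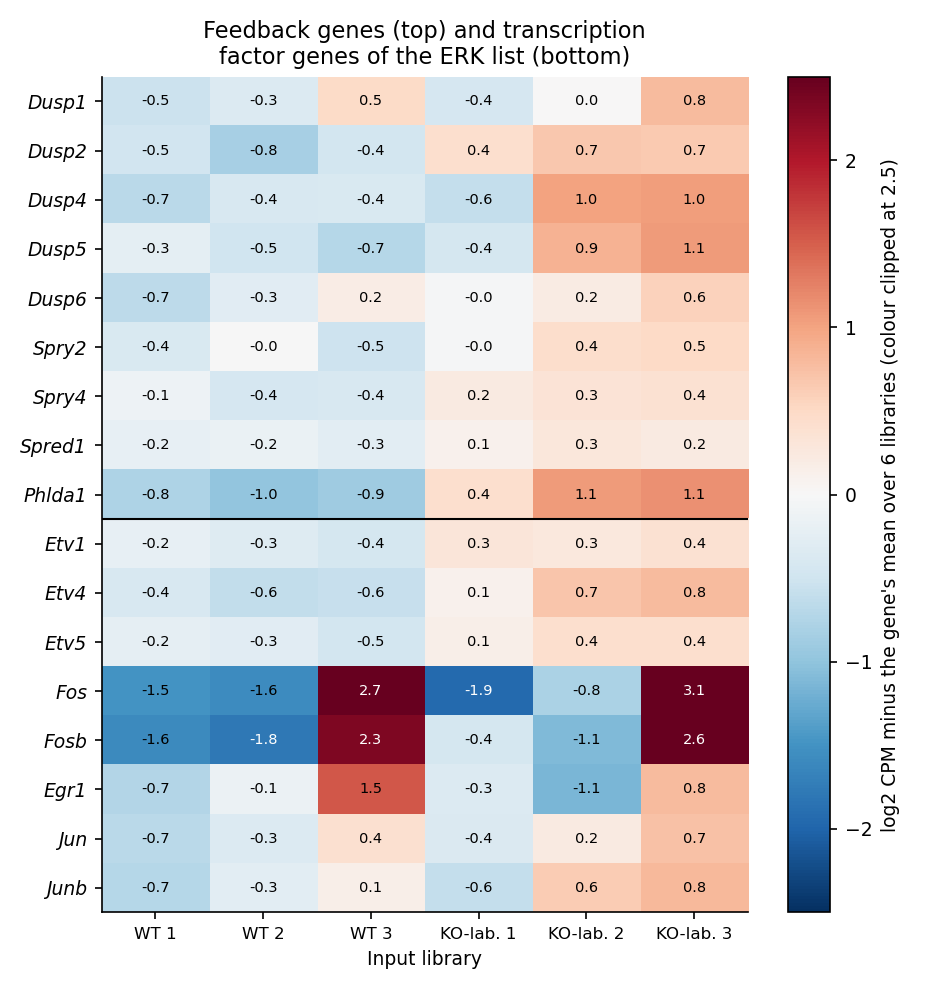
Log2 CPM of each gene minus its own mean over the 6 input libraries (columns), for the 9 tested feedback genes above the line and 8 transcription factor genes of the ERK list below it; colours are clipped at 2.5. Fos, Fosb and Egr1 are highest in replicate 3 of each group, while Dusp4 and Dusp5 are high in KO-labelled replicates 2 and 3.

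The members also differed in sequence features. The AU-rich pentamer ATTTA occurred at 6.88 per kilobase of 3′ UTR in Dusp2, 5.80 in Dusp1 and 4.90 in Phlda1, at or above 98.0%, 96.6% and 94.5% of 10832 tested genes with a 3′ UTR of at least 200 bases, whose median was 1.42. The other 7 members had 0.841 to 2.77 per kilobase. So 2 of the 3 genes with most ATTTA, Dusp2 and Phlda1, were called higher, and Dusp1 was not. The third called member, Spred1, had 2.77 per kilobase, at or above 76.7% of those tested genes. A link between ATTTA and the calls was not tested.

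Promoter windows of 300 bases, from 250 before to 50 after the gene start, were taken from RefSeq (GRCm38.p6) and matched for 7 of the 10 genes; Dusp4, Spry4 and Phlda1 were not matched. On either strand, the AP-1 motif TGAGTCA occurred in 0 of 7 (5.20% of 32851 promoters) and the NF-kB motif in 0 of 7 (8.46%). The CRE core TGACG occurred in 3 of 7, Dusp1, Dusp2 and Dusp5 (20.8%), and the CArG box, the site of serum response factor, in Dusp5 alone (1.63%). Some sites of Dusp1 and Dusp5 are printed because both genes are induced by growth factors, with the motif in capitals.
Dusp1, CRE core: agggcgggTGACGtcaccgcc
Dusp5, CArG box: ggaaatacCCATATTTGGccttatat
Dusp5, CArG box: atatttggCCTTATATGGgcactcac
Distances are from the RefSeq start, which for Dusp1 and Dusp5 differs from the ends of the GENCODE gene spans given above. The Dusp1 stretch is chr17:26508603-26508623 (minus strand), 143 bases before that start, where another CRE core on the other strand overlaps it. The Dusp5 stretches are chr19:53529055-53529080 and chr19:53529065-53529090 (plus strand), and the boxes stand side by side 82 and 72 bases before the RefSeq start. These are matches of letters and not measured sites.

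The called members included genes with and without an m6A peak. Of the 5 members with a RIP peak on a WT m6A peak, Spred1 and Phlda1 were called higher and Dusp1, Dusp4 and Spry2 were not. Dusp2 was called with a RIP peak and no m6A peak. Over protein-coding genes tested, the median log2 fold change was 0.10 in the 4082 genes with a RIP peak on a WT m6A peak and 0.01 in the other 8786. Broader classes were separated at least as far. Medians with and without were 0.071 and -0.040 for any WT m6A peak and 0.085 and -0.073 for any KO-labelled m6A peak. For any RIP peak they were 0.087 and -0.0065. Genes with a RIP peak on a WT m6A peak are also part of the WT m6A and RIP classes. These medians therefore cannot show whether the difference was particular to those genes, and its cause was not tested.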

How the data were processed

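Input RNA of MC38 cells was compared between 3 WT and 3 KO-labelled libraries. The authors deposited whole-number read counts per gene with no normalization, and the table held 0 columns of other samples. They also deposited 3 peak lists whose column named score, per the file headers, held values read here as p-values from the values alone. The submitters' processing notes list HISAT2, HOMER, ChIPseeker and mm10 without a role for each. Counter, strand setting, annotation and peak caller were not given in the sources used here. Signal of single IP and RIP libraries was not analysed here.

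Counts were tested with edgeR 4.0.16 (TMM, filterByExpr, quasi-likelihood F test, no covariate, Benjamini-Hochberg adjustment over 18969 genes) in R 4.3.3. The procedure was tested on simulated data. Alternatives were DESeq2 1.42.0, other scaling, no filter, a replicate block, libraries left out, a stricter peak score (1e-05) and a stricter overlap. Peaks were placed on the GENCODE M21 (GRCm38) transcript with the longest coding sequence by Python 3.11.15 scripts. Intervals and floors cover counting error only.

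All 10 members are named. In each pathway list the called genes are named, at most 4 by adjusted p, with further list genes named as context after their values were seen. The 3 nearest genes of each called member are named by a fixed measure. The members and lists were chosen with earlier results of these data known. Amino acid sequences were not used here.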

Additional observations from a re-analysis of the deposited data

How the results depend on the processing

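Counts of called genes depended strongly on which libraries entered. In the order members higher, all genes higher, all genes lower, pathway genes higher and pathway genes lower, edgeR with all libraries gave 3, 568, 293, 11 and 0. DESeq2 gave 5, 2244, 1346, 39 and 1. With no filter but 1 count, edgeR called Phlda1 alone of the members, 70 and 41 genes in all, and 1 and 0 pathway genes. With libraries left out 1 at a time, members higher ranged from 0 to 8, all genes higher from 0 to 3782, all genes lower from 0 to 3144, pathway genes higher from 0 to 62 and pathway genes lower from 0 to 9, the highest each time without KO-labelled replicate 1. Without replicate 1 of both groups the counts were 8, 4758, 4126, 66 and 12. That fit keeps only the close pair of each group, so its counts are no further support. Each count of 8 members includes Spry1, which passed the filter only through the KO-labelled libraries in which it was high. Its call there has no weight. Where a group is left with 2 libraries, the spread is pooled over both groups. No setting called a member lower by edgeR or DESeq2.

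Same-numbered libraries correlated at 0.0494, 0.115 and 0.0502 after group means were removed, beside -0.0894 to 0.0240 for libraries of different number. Each library thus correlated best with its own number. The correlations were low, and they do not settle whether libraries of a number were handled together. The main fit did not use the numbers as pairs. With the replicate block, edgeR called 0 members, 45 and 26 genes in all and 0 pathway genes, with adjusted p of 0.0515 for Phlda1, 0.0607 for Dusp2 and 0.0702 for Spred1. The block lowered the SE of Dusp6 from 0.24 to 0.12 and that of Dusp1 from 0.37 to 0.12. Neither passed (edgeR adjusted p = 0.0828 and 0.229).

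The sign of a member turned once: with libraries left out 1 at a time, Dusp1 had its lowest value, -0.13, when KO-labelled replicate 3 was dropped and its highest, 0.65, when WT replicate 3 was dropped. With DESeq2 size factors in edgeR, and with library totals alone, 3 members were called higher, as with TMM, while the 11 pathway calls became 8 and 9. Counts of members with peaks (6 WT m6A, 8 KO-labelled m6A, 8 RIP, 5 with RIP on WT m6A) were the same with a stricter score, and the last also with a stricter overlap. The cause of these shifts was not tested. At this depth Spry1 was too low to be tested with all libraries.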
